A study of Rattus norvegicus with 20 samples.

Results

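Epithelial cells of the rat trachea, cultured and then recovered from grafts in mouse skin, were compared with the same kind of culture before grafting. Of the 20 arrays of the series, 4 hold trachea cells, 2 from cultures before transplantation and 2 from recovered and recultured cells, and the comparison runs over all 14506 genes with a single symbol. Expression was measured on Affymetrix Rat Gene ST whole-transcript arrays and is given as log2 values, on which a difference of 1 is a 2-fold difference. The other 16 arrays hold cells from oral mucosa, vagina, esophagus and footpad, again 2 before and 2 after grafting for each tissue, and serve here to show where trachea cells differ. The question was which genes differed in airway cells once they had been through a skin environment.

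All donors were Sprague-Dawley rats at postnatal day 200 that carry an EGFP transgene under an actin promoter and therefore fluoresce in every cell type. Minced tissue was dissociated in trypsin and plated on a feeder of irradiated 3T3-J2 mouse fibroblasts. For transplantation, cultured cells were placed in newborn mouse skin that was then grafted onto nude mice, which lack most T cells, and the grafts were later dissected and dissociated. The labels describe these grafts by fluorescent follicles for all tissues together, and do not say which structure in the graft the trachea cells came from. The study reports that trachea cells in such grafts made an epidermis-like epithelium, and no hair follicles or sebaceous glands. After a second culture on the same kind of feeder layer, EGFP-positive cells were sorted and 100 ng of RNA per array was labeled. Both stages therefore share the transgene, the feeder layer and the sort, which removes mouse cells and would keep any rat cell, epithelial or not. The study's methods call the arrays of a cell type biological replicates from parallel cultures, but neither they nor the labels say whether separate animals or grafts were used, so p-values measure only the spread between these duplicate cultures. The titles of the trachea samples carry the numeral V before and I after, which the labels do not explain. Should these be passages, passage and stage cannot be told apart.

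The tracheal lining is a pseudostratified epithelium in which basal cells, marked by the transcription factor Tp63 and keratins 5 and 14, renew secretory and ciliated cells. The epidermis is also renewed by basal cells with Tp63 and keratin 14, but these give rise to stratified, cornifying keratinocytes and to hair follicles. Nkx2-1, a homeobox factor of lung, trachea and thyroid, is the usual sign of airway origin, while Lhx2 and Gata3 belong to hair follicle and inner root sheath programs.

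Duplicates were close at each stage (Pearson's r = 0.996 across genes, which are not independent replicates). The median change over all symbols was 0.00078, and 90.4% of symbols changed by less than 0.5 on the log2 scale in either direction. A gene passed the test, and is said to have risen or fallen, at a limma adjusted p below 0.05 together with a change of over 2-fold. This held for 91 symbols that rose (0.627% of the 14506) and 141 that fell (0.972%). These shares are the background for each list count of trachea below. In all 232 both arrays of one stage lay beyond both of the other, which was also so for 29.6% of all symbols upward and 32.5% downward. A change of over 4-fold was seen for 9 genes that rose and 24 that fell, so the larger changes were mostly losses. Changes are the mean of the arrays after minus that of the arrays before, ± the SE that limma estimated, with n = 2 arrays at each stage.

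**Figure D1:**
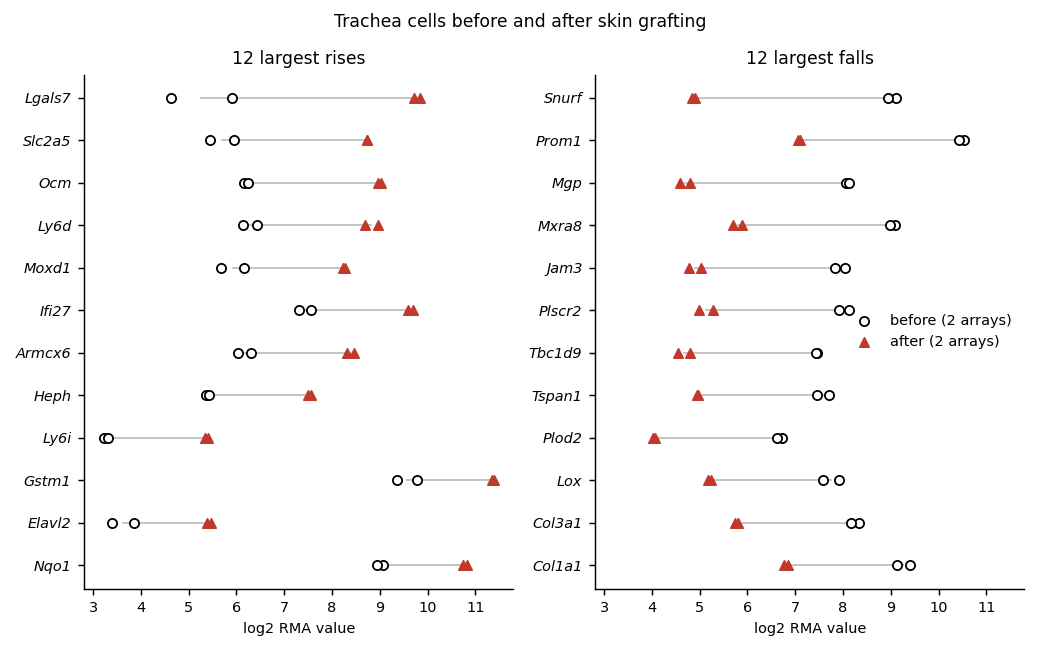
Log2 RMA values of the 12 genes with the largest rise (left) and the 12 with the largest fall (right) in the 4 trachea arrays, with open circles for the 2 arrays before and triangles for the 2 arrays after grafting, and grey lines joining the stage means. The stages do not overlap for any of the 24 genes, and Lgals7 shows the widest gap between duplicates, with 5.90 and 4.63 before.

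Airway identity was looked at first. Nkx2-1 measured 6.64 and 6.77 before and 6.56 and 6.77 after, so the stages overlapped. Its change was -0.04 ± 0.18 (adjusted p = 0.934). Trachea cells had more Nkx2-1 than the mean of the other 4 tissues, by 0.75 before (adjusted p = 0.0035) and by 0.50 after (adjusted p = 0.027), both under 2-fold. Single tissues lay close to trachea, at 5.56 to 6.29 before and 5.93 to 6.45 after, so this probe set separates airway from other cells only weakly. Of 21 measured transcription factors of the airway lineage, 1 rose and 0 fell, and the median change was -0.04. The one that rose was Hopx, a homeodomain-only cofactor that is also found in keratinocytes, at 8.14 and 8.22 before and 9.70 and 9.86 after (1.60 ± 0.12, adjusted p = 2.06e-06). Sox2, which is needed for the conducting airways and esophagus, measured 7.77 and 7.84 before and 8.28 and 8.51 after, a change of 0.59 that was under 2-fold.

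Few basal cell genes passed the test. Of 18 measured, 0 rose and 1 fell, with a median change of -0.06. Tp63 measured 9.06 and 9.0 before and 9.13 and 9.13 after, and Krt14, among the highest values of the arrays, 13.06 and 13.05 before and 13.13 and 13.14 after. Krt15, a keratin of basal cells with low turnover, was the member that fell, from 9.53 and 9.38 to 8.34 and 8.42 (-1.08 ± 0.14, adjusted p = 0.00016), and without the first array before its change was -1.0, a fall just under 2-fold. Pdpn, the surface mucin podoplanin of basal cells, measured 10.51 and 10.48 before and 11.16 and 11.14 after, a change of 0.65 under the fold threshold.

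Genes of differentiated airway cells ranged from low to high in these cultures. The club cell secretoglobin Scgb1a1 measured 4.24 and 4.0 before and 3.44 and 3.36 after, under the 40th percentile of all probe set means (4.77). Of 23 secretory cell genes, 11 lay under that level at both stages, and of 15 genes of ciliated cells, 8 did, beside 30.4% of all symbols. Some secretory genes, among them the mucins Muc5ac and Muc5b, had no single-symbol probe set and were not analysed. None of the ciliated cell genes passed the test in either direction, and Foxj1, the master regulator of motile cilia, measured 6.08 and 6.01 before and 6.25 and 6.12 after. In the secretory list 3 genes fell and 0 rose, beside 0.972% of all symbols lower. These were Prom1, Lcn2 and Msln, of which Lcn2, the iron-scavenging lipocalin 2, went from 7.41 and 7.04 to 5.21 and 5.16 (-2.05 ± 0.18, adjusted p = 5.8e-06). Msln, which encodes the surface protein mesothelin, remained high at 11.86 and 11.82 before and 10.78 and 10.69 after (-1.11 ± 0.10, adjusted p = 8.4e-06). In the other tissues Lcn2 changed by -2.01 in footpad and -1.34 in vagina, with -0.32 in oral mucosa and 0.35 in esophagus. Msln changed by -2.17 in oral mucosa, -2.22 in vagina, -0.01 in esophagus and 2.41 in footpad. The secretory list had 5 lower in vagina (2.41% of all symbols there) and 1 lower in esophagus (0.765%). In oral mucosa 4 were lower and 1 higher (3.07% and 1.91%), and in footpad 1 was lower and 4 higher (4.02% and 5.25%).

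Genes typical of simple epithelia were among the largest falls. Prom1 encodes prominin 1, a glycoprotein of membrane protrusions on the apical side. It went from 10.52 and 10.43 to 7.11 and 7.06, a fall of 10.5-fold (-3.40 ± 0.13, adjusted p = 4.16e-09). Trachea cells still held 2.73 more than the mean of the other tissues after grafting, against 4.33 more before. That mean covers unlike tissues, since vagina cells had Prom1 at 10.12 before and 4.54 after. In oral mucosa, esophagus and footpad it lay between 4.01 and 5.35 before. Of 20 genes in the list of simple epithelia 4 fell and 0 rose, beside 0.972% of all symbols lower, and the median change was -0.25. The members that fell were Prom1, Cldn7, Krt19 and Krt18. The same list had 12 lower in oral mucosa (median -1.06) and 7 lower in vagina (-0.42), beside 3.07% and 2.41% of all symbols there. In esophagus 1 was lower (median -0.46, 0.765% of all symbols). In footpad 8 were higher and 1 lower (median 0.63, 5.25% and 4.02% of all symbols). In trachea Cldn7, a claudin of tight junctions and lateral membranes, measured 7.11 and 7.24 before and 4.77 and 5.07 after (-2.25 ± 0.15, adjusted p = 3.79e-07). Its level went from 2.55 above the mean of the other tissues to 0.57 above.

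The keratins of simple epithelia went in the same direction to different extents. Krt19 measured 10.94 and 10.86 before and 8.95 and 9.03 after (-1.91 ± 0.17, adjusted p = 5.8e-06), and remained 3.27 above the other tissues. Krt18 fell by 1.86 ± 0.24 (adjusted p = 0.000177), from 8.93 and 8.65 to 7.06 and 6.79. A second probe set for Krt18 also fell, by 1.23, while another changed by -0.13 and did not pass the test, so the probe sets of Krt18 disagree in size. Krt8, the usual partner of Krt18, measured 11.59 and 11.62 before and 10.63 and 10.60 after, which at -0.99 ± 0.24 was just under 2-fold. Other apical and lateral genes did not pass the test, among them Epcam, an adhesion molecule of simple epithelia, with a change of -0.08, and Cldn4, a claudin of tight junctions, with 0.01. Tspan8, a tetraspanin of mucous epithelia, measured 11.28 and 11.13 before and 11.83 and 11.82 after. It lay 4.18 above the mean of the other tissues before grafting and 5.68 above it after. In the other tissues Krt19 changed by -1.41 in oral mucosa, -3.36 in vagina, -0.78 in esophagus and 1.90 in footpad. For Krt18 these changes were -2.67, -1.44, -0.43 and 0.51.

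Other surface and transport proteins of the airway were split. Tspan1, another tetraspanin, fell from 7.72 and 7.45 to 4.95 and 4.97 (-2.63 ± 0.12, adjusted p = 1.71e-08). Scnn1a, the alpha subunit of the epithelial sodium channel, fell from 5.90 and 6.21 to 4.69 and 4.59 (-1.42 ± 0.21, adjusted p = 0.00057). Car12, a membrane-bound carbonic anhydrase, rose from 9.82 and 9.80 to 10.90 and 10.85 (1.07 ± 0.07, adjusted p = 8.02e-07). Scnn1a and Car12 were the only calls among 19 genes of airway ion and water transport, and Cftr, the chloride channel mutated in cystic fibrosis, measured 4.99 and 5.17 before and 4.57 and 4.11 after without passing the test. Jam3, a junctional adhesion molecule, fell from 7.82 and 8.04 to 5.02 and 4.77 (-3.04 ± 0.16, adjusted p = 6.1e-08), which took it from 2.97 above the other tissues to -0.01. Dsc3, a desmosomal cadherin of stratified epithelia, rose from 10.08 and 10.07 to 11.15 and 11.20 (1.10 ± 0.08, adjusted p = 6.22e-07).

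The largest rise of all was in a gene of stratified epithelia. Lgals7 encodes galectin 7, a lectin of keratinocytes, and measured 5.90 and 4.63 before and 9.84 and 9.71 after. Both arrays after lay far above both before, and the rise was 22.8-fold (4.51 ± 0.26, adjusted p = 1.22e-07). Before grafting trachea cells were 4.49 below the mean of the other tissues in Lgals7, and after grafting they were 0.90 below (trachea minus the others -4.49 and -0.90). Ly6d, a small membrane-anchored protein of keratinocytes, rose from 6.13 and 6.43 to 8.69 and 8.96 (2.54 ± 0.13, adjusted p = 6.24e-08), from -1.94 to 0.91 relative to the other tissues.

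Few other measured genes of cornification passed the test. The list held 35 genes, and those without a single-symbol probe set, among them Lor, Flg and Spink5, were not analysed. Of 20 measured genes of epidermal cornification 2 rose and 0 fell, beside 0.627% of all symbols higher, with a median change of 0.06. The second was Cnfn, which encodes cornifelin of the cornified envelope, at 6.25 and 6.11 before and 7.41 and 7.65 after (1.35 ± 0.13, adjusted p = 1.9e-05). The keratins of the suprabasal epidermis stayed low, with Krt1 at 4.30 and 4.05 before and 4.18 and 4.51 after, and Krt10 at 4.45 and 4.77 before and 4.99 and 4.75 after. Involucrin, another envelope protein encoded by Ivl, measured 4.48 and 4.55 before and 4.60 and 4.40 after. The stages overlapped for all of Krt1, Krt10 and Ivl.

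In the list of mucosal and stress keratinocyte genes, 2 of 15 rose and 0 fell, beside 0.627% of all symbols higher, with a median change of 0.18. Krt16, a keratin of activated keratinocytes, rose from 9.58 and 9.54 to 10.59 and 10.66 (1.07 ± 0.12, adjusted p = 5.7e-05). Sprr3, a small proline-rich envelope protein of the esophagus and mouth, rose from 5.01 and 5.44 to 6.22 and 6.50 (1.14 ± 0.15, adjusted p = 0.000152). Its fold depends on the arrays used, since its change was 0.92 without the first array before and 1.00 without the second array after, both just under the fold threshold. Krt4 and Krt13, the keratin pair of mucosal linings, had changes of 0.77 and 0.96 in trachea, both under 2-fold in the main comparison, while Krt13 reached 1.05 without the first array before and 1.02 without the first array after.

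**Figure D2:**
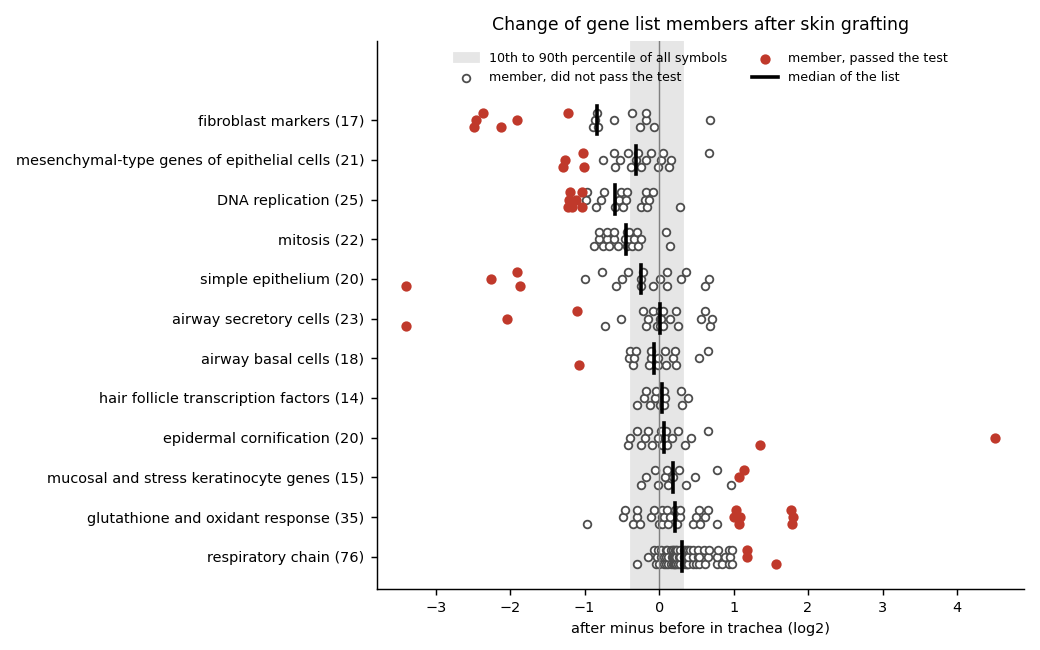
Change after grafting in trachea cells (log2, horizontal axis) of each measured member of 12 gene lists, with the number of members in parentheses, filled points for members that passed the test, black bars for list medians and a grey band for the 10th to 90th percentile of all symbols (-0.38 to 0.32). Medians lie lowest for fibroblast markers (-0.84) and DNA replication (-0.60), and highest for the respiratory chain (0.31).

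No hair follicle transcription factor out of 14 passed the test in either direction, and their changes ran from -0.30 to 0.38. Lhx2, a regulator of follicle stem cells, measured 5.57 and 5.52 before and 5.70 and 5.31 after (-0.04 ± 0.22). Gata3, which specifies the inner root sheath, measured 6.86 and 6.83 before and 6.88 and 6.94 after (0.07 ± 0.13). Of 21 factors listed, those without a single-symbol probe set, such as Sox9 and Hoxc13, were not analysed. The same list had 3 higher in oral mucosa (1.91% of all symbols), 2 in vagina (0.62%) and 4 in footpad (5.25%). Esophagus had 0 higher and 1 lower (0.765%), with Lhx2 at -0.16 and Gata3 at -1.37. In oral mucosa, vagina and footpad Lhx2 changed by 1.09, 1.66 and 1.23, and Gata3 by 1.48, 0.82 and 1.67. In trachea, of 14 Wnt ligands, 28 Wnt receptors and modulators, 22 genes of the Notch pathway and 6 of the hedgehog and ectodysplasin pathways, 0 passed the test. At limma's adjusted p alone, without a fold threshold, the largest of these changes belonged to Wnt5a. It measured 8.57 and 8.50 before and 7.49 and 7.72 after (-0.93 ± 0.11, adjusted p = 0.00012). Wnt5a, a ligand of non-canonical Wnt signaling, fell by 1.04 without the second array after and would then be past the fold threshold. Among prostaglandin genes Hpgd, which inactivates prostaglandins, rose from 3.73 and 3.46 to 5.17 and 4.92 (1.45 ± 0.21, adjusted p = 0.00045). The cyclooxygenase gene Ptgs1, at 9.63 and 9.62 before and 8.65 and 8.89 after, changed by -0.85 and the synthase gene Ptges, at 10.02 and 9.93 before and 9.61 and 9.44 after, by -0.45, both under 2-fold.

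Several of the 12 largest falls were in genes of the fibrous matrix, which are grouped here after their values were seen and were not a list of their own. Col1a1 and Col3a1 encode chains of fibrillar collagens. Col1a1 went from 9.40 and 9.13 to 6.77 and 6.84 (-2.46 ± 0.13, adjusted p = 7.14e-08), and Col3a1 from 8.34 and 8.17 to 5.73 and 5.79 (-2.49 ± 0.19, adjusted p = 1.53e-06). Lox, the oxidase that cross-links collagen, fell from 7.93 and 7.58 to 5.17 and 5.24 (-2.55 ± 0.17, adjusted p = 4.41e-07), and Plod2, which hydroxylates collagen lysines, from 6.71 and 6.62 to 4.07 and 4.01 (-2.63 ± 0.17, adjusted p = 3.79e-07). Mgp, the matrix Gla protein that restrains calcification of cartilage and vessels, fell from 8.07 and 8.12 to 4.59 and 4.81 (-3.39 ± 0.15, adjusted p = 1.28e-08). In each of these 5 genes both arrays after lay more than 2 log2 units below both before.

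Serpinf1, a secreted inhibitor of vessel growth, fell by 2.26 ± 0.13 and Adamts1, a matrix metalloprotease, by 1.49 ± 0.13. Mxra8, an adhesion protein of the immunoglobulin family, fell by 3.24 ± 0.13 from 9.09 and 8.99 to 5.71 and 5.89. Before grafting Mxra8 and Mgp lay 2.26 and 2.61 above the mean of the other tissues, and after grafting they differed from it by 0.00 and -0.10. That mean covers unlike tissues, since vagina cells had Mxra8 at 9.02 before and 5.95 after and Mgp at 7.45 before and 4.67 after (-3.07 and -2.77). In the other 3 tissues Mxra8 lay between 5.76 and 6.29 before and Mgp between 4.44 and 5.56.

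Markers of fibroblasts moved with these genes. Of 17 measured, 6 fell and 0 rose, 15 had both arrays after below both before (32.5% of all symbols did), and the median change was -0.84. The members that fell were Col3a1, Col1a1, Col1a2, Thy1, Postn and Dcn. The summed level of the list, on the linear scale, was 3429 to 3860 before and 1806 to 1875 after. Thy1, a surface glycoprotein of fibroblasts, went from 7.15 and 7.06 to 4.99 and 4.97 (-2.12 ± 0.18, adjusted p = 5.2e-06), while Pdgfra, the receptor that defines many fibroblasts, measured 5.29 and 5.10 before and 4.83 and 4.83 after and Lum, encoding the proteoglycan lumican, 3.28 and 3.39 before and 2.58 and 2.44 after. In bulk cultures fewer cells of a type and less RNA per cell cannot be told apart, and the part of fibroblasts in the falls was not tested. The count of 6 was 4 where probe sets of low mean were left out, because Postn and Dcn were then not tested.

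The same direction was seen in vagina and footpad cells, and not in oral mucosa or esophagus cells. The fibroblast list had a median change of -0.90 in vagina with 8 of 17 lower (2.41% of all symbols were lower there) and of -1.31 in footpad with 10 lower (4.02%). In oral mucosa the median was 0.25 with 1 higher (1.91% of all symbols), and in esophagus it was -0.02 with no call. Col1a1 changed by -2.39 in vagina and -1.88 in footpad, against 0.26 in oral mucosa and -0.14 in esophagus, and the response of trachea minus the mean response of the other 4 tissues was -1.42 ± 0.15 (adjusted p = 2.21e-05).

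**Figure D3:**
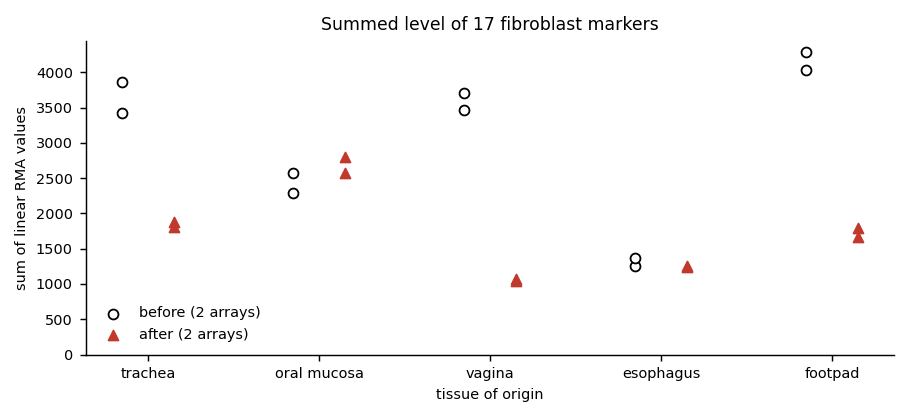
Sum of the linear RMA values of 17 fibroblast markers (vertical axis) in each of the 20 arrays, by tissue of origin, with open circles before and triangles after grafting. In trachea the sum is 3429 to 3860 before and 1806 to 1875 after, and it is also lower after grafting in vagina and footpad.

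Mesenchymal-type genes that epithelial cells can express in culture were described next. Of 21, 4 fell and 0 rose, beside 0.972% of all symbols lower, with a median change of -0.31. In vagina 7 were lower and 1 higher (2.41% and 0.62% of all symbols), and in footpad 9 were lower (4.02%). In oral mucosa 7 were higher (1.91%), and in esophagus 1 was higher (0.572%). In trachea Vim, the intermediate filament vimentin, measured 10.09 and 10.08 before and 9.14 and 9.0 after (-1.01 ± 0.15, adjusted p = 0.000445). Tagln, an actin-binding protein, fell by 1.28 ± 0.16, Mmp2, a gelatinase, by 1.27 ± 0.14 and Itga5, a fibronectin receptor subunit, by 1.02 ± 0.14. Without the second array after, 2 of the 4 were left, since Vim and Itga5 then changed by -0.94 and -0.97. Markers of cartilage, smooth muscle, endothelium, leukocytes, melanocytes and Schwann cells, and thyroid and neuroendocrine cells had 0 calls in either direction. Among them the summed leukocyte level was 913 to 943 before and 1107 to 1123 after, and the cartilage level 405 to 417 before and 433 to 440 after.

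Of the imprinted genes, 3 of 26 fell and 0 rose, beside 0.972% of all symbols lower. Snurf, which lies in the first exons of the paternally expressed Snrpn transcript, showed the largest fall of all genes. It measured 9.11 and 8.94 before and 4.90 and 4.84 after, a 17.8-fold difference (-4.15 ± 0.20, adjusted p = 2.23e-08). Snrpn, which encodes a splicing protein from the same transcript, had 6.81 and 6.97 before and 6.33 and 6.34 after, a change of -0.55 ± 0.10 that did not reach 2-fold. The probe sets of this locus thus differ in size, and signal from overlapping transcripts cannot be assigned to either gene here. The same Snurf probe set changed by -2.25 in oral mucosa and -2.17 in footpad, and by 0.22 in vagina and 0.49 in esophagus. The other imprinted genes that fell were Dcn, also a fibroblast marker, and Sgce, a sarcoglycan (-1.18 ± 0.10, adjusted p = 3.8e-06). With probe sets of low mean left out, Snurf alone was counted.

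Genes of DNA replication were lower after grafting. Of 25 measured, 7 fell and 0 rose, beside 0.972% of all symbols lower, 24 had a negative change, and the median was -0.60. The helicase loader Cdc6 fell by 1.22 ± 0.16, the initiation factor Mcm10 by 1.21 ± 0.12, Mcm2 by 1.20 ± 0.11 and Mcm5, like Mcm2 a subunit of the replicative helicase, by 1.11 ± 0.09. Pole, the leading-strand polymerase, fell by 1.17 ± 0.18, the cyclin Ccne2 by 1.04 ± 0.22 and Tyms, the thymidylate synthase that supplies thymidine nucleotides, by 1.03 ± 0.18. By array, Mcm2 measured 9.76 and 9.87 before and 8.60 and 8.62 after, and Mcm5 10.04 and 10.02 before and 8.89 and 8.96 after. Tyms measured 7.97 and 8.0 before and 6.90 and 7.01 after, and in all 3 genes the stages lay about 1 log2 unit apart.

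These falls lie close to the fold threshold, and the number of calls moved with the arrays. It was 9 without the first array before, 6 without the second, 5 without the first array after and 8 without the second. Ccne2 was among those lost, with -0.98 without the second array before and -0.87 without the first array after, and Tyms was at -0.98 without the first array after. At limma's adjusted p alone, 18 of the 25 were lower, and 0 were lower by limma's test against a fold of 2.

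Genes of mitosis were below the fold threshold. None of 22 passed the test in either direction, but 20 had a negative change, 19 had both arrays after below both before (32.5% of all symbols did), and the median was -0.45. The kinesin Kif11 had the most negative change (-0.87 ± 0.14) and the cyclin Ccnb2 the most positive (0.15 ± 0.09). Top2a, the topoisomerase of dividing cells, measured 9.67 and 9.61 before and 8.72 and 8.94 after, and Cdk1, the mitotic kinase, 8.49 and 8.47 before and 7.85 and 7.88 after.

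Both lists were then set beside the other tissues. The median change of the replication list was 1.33 in oral mucosa with 20 of 25 higher (1.91% of all symbols) and 0.62 in vagina with 0 calls. It was 0.62 in esophagus with 4 higher (0.572% of all symbols) and -0.59 in footpad with 10 lower (4.02%). For the mitosis list it was 1.45 in oral mucosa with 19 of 22 higher (1.91% of all symbols), 0.50 in vagina, 0.37 in esophagus and -0.08 in footpad. The test of the difference, trachea's change minus the mean change of the other 4 tissues, was past the threshold downward for 16 of the 25 replication genes and 14 of the 22 mitosis genes, beside 1.52% of all symbols, and upward for 0 of either. For Mcm2 this difference was -1.46 (adjusted p = 3.9e-06) and for Kif11 it was -1.68 (adjusted p = 7.2e-06).

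**Figure D4:**
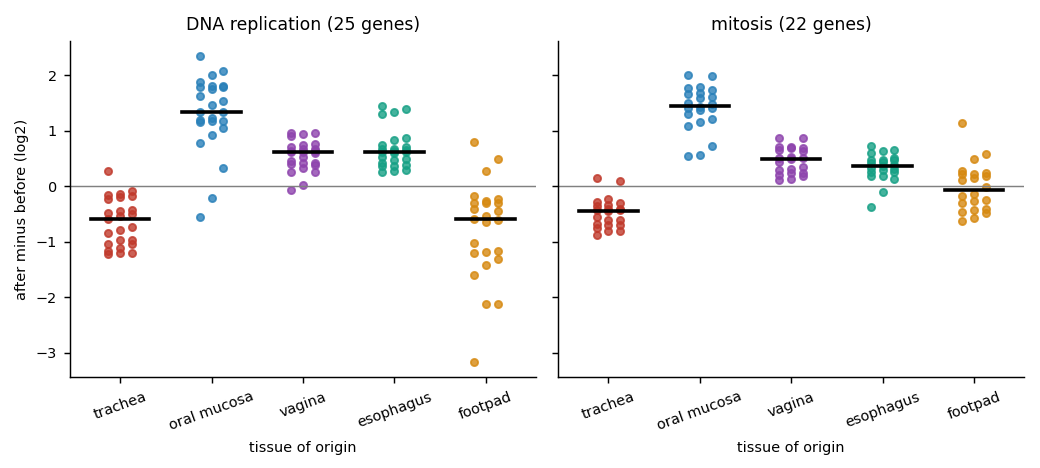
Change after grafting (log2, vertical axis) of each measured gene of DNA replication (left) and mitosis (right) in the 5 tissues, with black bars for the medians. Trachea medians are -0.60 and -0.45, while those of oral mucosa are 1.33 and 1.45, and footpad cells are near trachea for replication (-0.59).

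Many replication genes carry sites for E2F factors, which switch on genes at the entry to S phase, next to their start. RefSeq promoters of the GRCr8 assembly were found for 11968 of the 14506 symbols, and the 250 bases before the start were searched on both strands for the E2F motif TTTNNCGC (GCGNNAAA on the other strand). It was present in 690 of the 11968 (5.77%), in 8 of 21 replication genes with a promoter (38.1%) and in 3 of 18 mitosis genes (16.7%). Among all genes with a promoter, it was in 3.9% of those that rose and 9.09% of those that fell. Of the 7 replication genes that fell, 5 had a promoter and 3 of these, Mcm2, Mcm5 and Tyms, had the motif. Their stretches are shown 5′ to 3′ on the strand of the gene, with the motif in capitals. They were chosen because they had the motif, and a link between motif and fall was not tested. The Mcm2 stretch is chr4:122918095-122918344 on the minus strand, that of Mcm5 chr19:13488563-13488812 on the plus strand and that of Tyms chr9:120776084-120776333 on the minus strand.
Mcm2: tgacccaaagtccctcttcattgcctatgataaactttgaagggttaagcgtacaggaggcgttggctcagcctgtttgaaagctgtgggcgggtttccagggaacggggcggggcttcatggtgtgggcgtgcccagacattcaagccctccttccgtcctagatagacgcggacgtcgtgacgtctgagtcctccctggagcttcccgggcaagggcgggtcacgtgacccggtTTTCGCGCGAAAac
Mcm5: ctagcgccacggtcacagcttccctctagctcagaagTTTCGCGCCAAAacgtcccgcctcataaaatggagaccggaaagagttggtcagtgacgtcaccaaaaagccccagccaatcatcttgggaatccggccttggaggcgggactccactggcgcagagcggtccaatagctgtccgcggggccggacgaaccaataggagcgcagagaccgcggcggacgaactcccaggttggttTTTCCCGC
Tyms: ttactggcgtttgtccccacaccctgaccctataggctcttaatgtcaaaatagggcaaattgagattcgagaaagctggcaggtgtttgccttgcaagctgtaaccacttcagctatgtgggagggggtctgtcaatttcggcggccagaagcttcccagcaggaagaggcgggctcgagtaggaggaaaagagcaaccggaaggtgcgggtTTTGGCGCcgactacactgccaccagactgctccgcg
In Mcm2 there were 2 overlapping matches, which begin 14 and 10 bases before the start. Mcm5 had 3, of which the first pair overlaps, beginning 213, 209 and 8 bases before the start, and Tyms had 1, beginning 37 bases before it. A match describes the letters only, and binding was not measured.

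Enzymes of glutathione and oxidant metabolism had the most calls of any list among the rises. Of 35 measured, 7 rose and 0 fell, beside 0.627% of all symbols higher, with a median change of 0.22. Changes ran from -0.98, just under a 2-fold fall, to 1.80, with 25 positive and 10 negative. Gstm1, a glutathione transferase, went from 9.78 and 9.36 to 11.39 and 11.35 (1.80 ± 0.11, adjusted p = 3e-07). Nqo1, the quinone reductase, rose from 9.06 and 8.94 to 10.82 and 10.74 (1.78 ± 0.11, adjusted p = 3e-07), and Gsta4, a transferase that handles products of lipid peroxidation, from 7.26 and 7.08 to 8.93 and 8.95 (1.77 ± 0.17, adjusted p = 1.5e-05). A second probe set for Gsta4 also rose, by 1.67. Gpx2, the glutathione peroxidase of epithelia, measured 10.92 and 10.92 before and 11.99 and 11.91 after.

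The other members that rose were Gstm5, Gstt2 and Mgst2, also glutathione transferases, by 1.09 ± 0.14, 1.08 ± 0.13 and 1.01 ± 0.09. The Gstm genes are close copies of each other, so the share of each in these values is uncertain, and Gstm2 and Gstm4 changed by 0.22 and 0.65 without passing the test. Without the second array before, 5 of the 7 were left, with Gstm5 at 0.96 and Mgst2 at 0.99. Mgst2 was at 0.96 without the second array after and 0.98 with arrays centred on their medians, and Gpx2 was at 1.00, just under the threshold, without the first array after. Other genes of this response did not pass the test, among them Nfe2l2, encoding the factor NRF2 that drives many of these enzymes (0.07), Hmox1, the heme oxygenase (-0.11), and Srxn1, the sulfiredoxin (0.04). Gclm and Txnrd1, a glutathione synthesis subunit and a thioredoxin reductase, had changes of -0.30 and -0.25, which did not pass either.

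For the same list in the other tissues the median change was -0.09 in oral mucosa, -0.20 in vagina, -0.15 in esophagus and 0.27 in footpad. In footpad 8 rose and 4 fell, beside 5.25% and 4.02% of all symbols there, so footpad was near trachea in median and in number of rises. The difference of trachea from the mean of the other 4 tissues passed the test upward for 3 of the 35 (1.2% of all symbols) and downward for 0. Gstm1 changed by 1.97 in oral mucosa but by -3.21 in vagina, -2.29 in esophagus and -2.75 in footpad, and trachea minus their mean was 3.37 ± 0.13 (adjusted p = 5.08e-09). Nqo1 changed by 2.88 in footpad, and trachea minus the mean was 1.00 ± 0.12 (adjusted p = 0.000114), a difference that was 0.94 without the second array before.

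The antioxidant response element TGACNNNGC (GCNNNGTCA on the other strand) was searched in the same 250 bases. It was present in 12.1% of the 11968 symbols with a promoter, in 9 of 28 genes of the glutathione list (32.1%), and in 11.7% of genes that rose and 14.1% of genes that fell. Of the 7 members that rose 5 had a promoter, and of these Gpx2 and Gstm5 had the element. Both stretches follow, 5′ to 3′ on the strand of the gene with the element in capitals, chr6:101230034-101230283 on the minus strand for Gpx2 and chr2:198219519-198219768 on the plus strand for Gstm5 (GRCr8).
Gpx2: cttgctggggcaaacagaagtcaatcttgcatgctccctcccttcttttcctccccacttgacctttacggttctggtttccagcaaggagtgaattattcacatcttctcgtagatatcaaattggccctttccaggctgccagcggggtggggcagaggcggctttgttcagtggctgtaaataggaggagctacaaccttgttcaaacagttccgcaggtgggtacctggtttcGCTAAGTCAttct
Gstm5: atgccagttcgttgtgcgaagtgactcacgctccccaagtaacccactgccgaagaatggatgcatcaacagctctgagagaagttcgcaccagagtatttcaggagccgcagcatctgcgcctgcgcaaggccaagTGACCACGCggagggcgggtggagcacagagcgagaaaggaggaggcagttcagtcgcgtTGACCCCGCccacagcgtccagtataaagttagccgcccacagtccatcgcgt
Gpx2 had 1 match, which begins 13 bases before the start, and Gstm5 had 2, beginning 113 and 53 bases before it. The AP-1 motif TGANTCA, which overlaps antioxidant elements in some genes, was in 5.76% of all symbols with a promoter, 7.79% of those that rose and 4.04% of those that fell.

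Genes of the respiratory chain and ATP synthase, a list taken by symbol after their values had been seen, moved slightly upward. Of 76, 3 rose and 0 fell, beside 0.627% of all symbols higher. A positive change was seen in 70, and 60 had both arrays after above both before (29.6% of all symbols did). The median was 0.31, beside 0.00078 over all symbols. Ndufb6, a subunit of complex I, rose from 7.75 and 7.94 to 9.38 and 9.45 (1.57 ± 0.14, adjusted p = 6.7e-06), with Uqcrh, of complex III, and Ndufb11, of complex I, each up by 1.18. The count was 5, 4 and 6 without the first array before, the first after and the second after. Median changes in the other tissues were -0.09 in oral mucosa, 0.32 in vagina, 0.25 in esophagus and 0.39 in footpad, and 0 of the 76 passed the test of trachea against the mean of the others in either direction.

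Other genes among the 12 largest rises belonged to no list. Slc2a5, the fructose transporter, went from 5.95 and 5.44 to 8.73 and 8.73 (3.03 ± 0.13, adjusted p = 1.28e-08). It lay 3.29 below the other tissues before (-3.29) and at -0.30 relative to them after. Heph, the ferroxidase hephaestin, rose from 5.37 and 5.44 to 7.50 and 7.56 (2.13 ± 0.14, adjusted p = 4.43e-07), and it rose in vagina and esophagus cells as well, by 2.32 and 3.42. Ocm, the calcium-binding oncomodulin, rose from 6.17 and 6.25 to 9.03 and 8.96 (2.79 ± 0.09, adjusted p = 7.36e-10). It also rose in oral mucosa by 3.30 and in esophagus by 1.41, with 0.33 in vagina and -0.38 in footpad.

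Further rises came from genes of several kinds. Ifi27, an interferon-inducible gene, rose from 7.57 and 7.30 to 9.69 and 9.60 (2.21 ± 0.12, adjusted p = 1.09e-07), as the only one of 27 interferon response genes to pass, with a median change of the list of 0.10. Moxd1, a copper monooxygenase, rose by 2.33 ± 0.13, Armcx6, an X-linked armadillo-repeat gene, by 2.21 ± 0.19, Ly6i, of the same family as Ly6d, by 2.11 ± 0.16 and Elavl2, an RNA-binding protein of neurons, by 1.80 ± 0.21. Ly6i and Elavl2 were low before, at 3.22 to 3.31 and 3.40 to 3.86, and reached 5.34 to 5.41 and 5.39 to 5.47.

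Among the single falls, Plscr2, a phospholipid scramblase, went from 8.12 and 7.91 to 4.98 and 5.27 (-2.89 ± 0.16, adjusted p = 1.09e-07). Tbc1d9, of a family that acts on Rab GTPases, went from 7.47 and 7.43 to 4.55 and 4.79 (-2.78 ± 0.11, adjusted p = 4.16e-09). Plscr2 changed almost as much in vagina (-2.73), with 0.41 in oral mucosa, -0.17 in esophagus and 1.09 in footpad. Tbc1d9 changed by -1.34 in vagina and by -0.20 to 0.38 in the others. Defense genes fell singly in trachea, with Lcn2 above, Tlr3, a sensor of double-stranded RNA, by 1.24 ± 0.12 and Wfdc2, a protease inhibitor of airway secretions, by 1.16 ± 0.16. These were the only calls among 22 innate defense genes, beside 0.972% of all symbols lower. In growth factor pathways Fst, the activin antagonist follistatin, fell by 1.35 ± 0.14, Tgfbr3, a co-receptor for TGF-beta, by 1.12 ± 0.15 and Pdgfc, a platelet-derived growth factor, by 1.23 ± 0.18. None of 26 growth factor receptors passed, with 20 of 26 changes negative and a median of -0.27.

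How particular these changes were to trachea was then asked by the difference of responses, trachea's change minus the mean change of the other 4 tissues, tested in the same limma fit. It was past the threshold upward for 174 symbols (1.2%) and downward for 220 (1.52%). These counts include genes that moved in the other tissues and not in trachea. Krt4 gave the largest positive difference (3.84 ± 0.20, adjusted p = 5.84e-08), with 0.77 in trachea and falls of 6.63 in oral mucosa, 1.47 in vagina and 3.93 in esophagus. Krt13 (2.87 ± 0.19) and Sprr3 (2.99 ± 0.16) followed the same pattern, apart from a rise of Krt13 by 2.48 in footpad.

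For Slc2a5, Lgals7, Jam3 and Tspan1 the change in trachea was larger in size than in each of the other 4 tissues. Those tissues began from other levels. Before grafting they had Slc2a5 at 8.61 to 9.30 and Lgals7 at 8.17 to 10.56, above trachea. Jam3 was at 4.58 to 5.90 and Tspan1 at 4.13 to 4.79, below trachea and mostly near the 40th percentile (4.77) or under it. The part of the starting level in these differences was not tested. Slc2a5 changed by 3.03 in trachea and by -0.85 to 0.37 elsewhere, a difference of 3.00 ± 0.15 (adjusted p = 5.12e-08). For Lgals7 the difference was 3.59 ± 0.29 (adjusted p = 2.9e-06), although it also rose in vagina by 2.41 and in footpad by 1.28. Jam3 changed by -3.04 in trachea, -1.18 in footpad and 0.29 to 0.35 in the others, a difference of -2.98 ± 0.17 (adjusted p = 1.71e-07), and Tspan1 by -2.63 in trachea and -0.48 to -0.09 elsewhere. Prtfdc1 and Gnai1 were also among the 8 most negative differences. Prtfdc1, of the phosphoribosyltransferase family, measured 9.28 and 9.10 before and 8.35 and 8.39 after in trachea, a change of -0.82 under 2-fold, and rose in oral mucosa by 2.09 and in footpad by 4.50 (difference -2.50 ± 0.16, adjusted p = 3.93e-07, and -1.56 without the 4 footpad arrays). Gnai1, an inhibitory G protein subunit, fell in trachea from 5.22 and 5.38 to 3.95 and 4.03 (-1.31 ± 0.20, adjusted p = 0.000683) and in footpad by 1.94, and rose in oral mucosa by 1.91 and in esophagus by 3.72 (difference -2.36 ± 0.23, adjusted p = 1.29e-05). Prom1 fell more in vagina than in trachea. It changed by -5.59 in vagina and by -0.69 to -0.35 in the other 3 tissues, and its difference from their mean was -1.60 ± 0.15 (adjusted p = 8.25e-06).

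**Figure D5:**
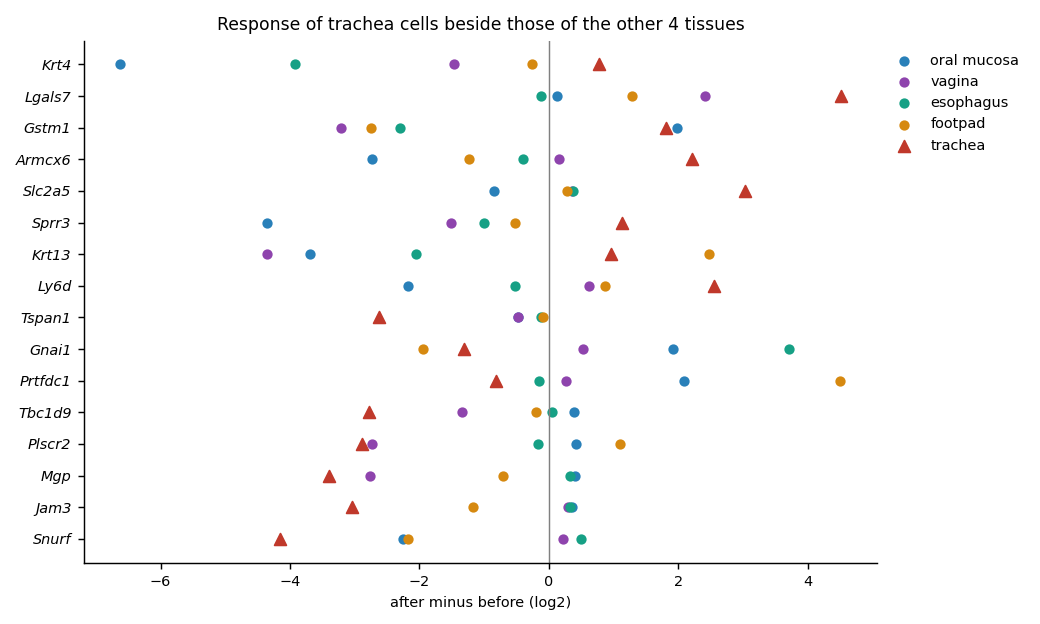
Change after grafting (log2, horizontal axis) in trachea (triangles) and in the other 4 tissues (circles) for the 8 genes with the largest positive and the 8 with the largest negative difference between trachea's response and the mean of the others. Slc2a5 and Tspan1 lie apart from all 4 tissues, whereas for Krt4 the gap comes from falls elsewhere, of 6.63 in oral mucosa for instance.

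The calls of trachea were set beside those of the other tissues, whose arrays do not overlap with those of trachea. Of the 91 genes that rose in trachea, 46 also rose in footpad (50.5% of the trachea list and 6.04% of the footpad list), 16 in vagina (17.6% and 17.8%), 12 in esophagus (13.2% and 14.5%) and 7 in oral mucosa (7.69% and 2.53%). Over all symbols the rises were 5.25% in footpad, 0.62% in vagina, 0.572% in esophagus and 1.91% in oral mucosa. The opposite call, lower, was given to 23 of the 91 in oral mucosa, 10 in esophagus, 9 in footpad and 8 in vagina. Of the 141 that fell, 69 also fell in vagina (48.9% and 19.7%), 53 in footpad (37.6% and 9.09%), 22 in oral mucosa (15.6% and 4.93%) and 5 in esophagus (3.55% and 4.5%), where all falls made up 2.41%, 4.02%, 3.07% and 0.765% of symbols. Of the same 141, 22 were called higher in oral mucosa, as many as fell there, 14 in footpad, 10 in esophagus, more than fell there, and 3 in vagina. No gene rose or fell past the threshold in all 5 tissues, and 31 of the 91 rises and 39 of the 141 falls had no call in the same direction elsewhere, which is a count of calls and not a test that the tissues differ.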

How the data were processed

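Cells of 5 rat tissues were measured on 20 arrays in 10 groups of 2, taken from the tissue and stage named in the labels. The deposited values are log2 values that the authors made with RMA in Affymetrix Expression Console, which corrects background, normalizes by quantiles and summarizes probe sets. Quantile normalization forces similar distributions on all arrays, so a shift of most genes in 1 direction would be reduced. Not given in the sources used here were the versions, the annotation build and which arrays were normalized together. Per array the file has no detection calls, and the number of arrays limits the precision. Array medians lay between 5.31 and 5.55.

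Of 29215 probe sets, 15310 had 1 symbol, 323 several and 13582 none in the platform annotation used. The gene IDs of 15279 were found in RefSeq of GRCr8, which changed 0 symbols. Each of 14506 symbols was represented by the probe set whose mean over the 20 arrays was highest. All 10 groups were fitted together with limma 3.58.1 (lmFit, eBayes) in R 4.3.3, with 10 residual and 3.64 prior degrees of freedom and Benjamini-Hochberg adjustment over all probe sets. The fit was tested on simulated data. Calls needed an adjusted p under 0.05 and a fold over 2.

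Genes named were the 12 largest rises and falls past the test with separate arrays and a level above the 40th percentile, the 8 largest response differences in each direction, Lgals7, Snurf and Prom1, up to 6 members past the test in each list, the extreme members of lists with fewer than 2 calls (only some are printed), and defining markers. Epcam, Cldn4, Ptgs1, Ptges, Top2a, Cdk1, Pdpn, Tspan8, Gstm2, Gstm4, Gclm, Txnrd1, Hmox1, Srxn1 and Nfe2l2 were named as list members after their values were seen. The members and all 46 lists were chosen with earlier results of these data known. Genes of the lists that had no single-symbol probe set, such as Krt5, Mcm3 and Ptch1, were not analysed here. Alternatives were a replicate block, centring of arrays, a filter on low means, trend and robust settings, array weights, fits without footpad or with trachea alone, limma's test against a fold of 2, adjusted p alone, other probe sets and leaving out each trachea array.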

Additional observations from a re-analysis of the deposited data

Results flagged for a closer look

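Each gene below changed in trachea cells by a different amount than on average in the other 4 tissues. The value is trachea's change minus their mean change on the log2 scale, past limma's adjusted p of 0.05 and a 2-fold difference, as 1.2% of all symbols were upward and 1.52% downward. Groups of 2 arrays are too small for a test of single outlying arrays.

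Among keratinocyte genes the differences were 3.84 for Krt4, 3.59 for Lgals7, 2.99 for Sprr3, 2.87 for Krt13, 2.85 for Ly6d, 1.67 for Krt16 and 1.56 for Cnfn. Cnfn rose more in footpad (2.60) than in trachea (1.35), and changed by -2.21 in oral mucosa, -1.12 in esophagus and -0.11 in vagina. Among genes of simple epithelia, airway cells and defense they were 1.50 for Tspan8, 1.10 for Sox2, 1.15 for Car12, -1.08 for Wfdc2, -1.22 for Lcn2, -1.39 for Tlr3, -1.59 for Scnn1a, -1.60 for Prom1, -1.98 for Cldn7 and -2.34 for Tspan1. Oxidant and glutathione genes gave 3.37 for Gstm1, 2.77 for Gsta4 and 1.00 for Nqo1. For cell cycle genes the values were -1.10 for Cdk1, -1.37 for Mcm5, -1.46 for Mcm2, -1.52 for Pole, -1.57 for Top2a, -1.63 for Ccne2, -1.68 for Kif11, -1.80 for Mcm10 and -1.87 for Cdc6, all negative. Matrix, fibroblast and mesenchymal-type genes gave -1.01 for Thy1, -1.18 for Tagln, -1.33 for Col1a2, -1.40 for Col3a1, -1.42 for Col1a1, -1.50 for Lox, -1.54 for Postn, -1.58 for Serpinf1, -2.17 for Vim, -2.26 for Mxra8, -2.29 for Plod2 and -2.71 for Mgp. Vim changed by -1.01 in trachea, -0.74 in footpad and -0.50 in vagina, against 5.10 in oral mucosa and 0.74 in esophagus.

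The remaining upward differences were 3.26 for Armcx6, 3.00 for Slc2a5, 2.24 for Ly6i, 1.66 for Hpgd, 1.62 for Ocm, 1.12 for Ifi27 and 1.11 for Moxd1. Ifi27 rose more in footpad (2.57) than in trachea (2.21), and changed by 0.24 to 0.97 in the other tissues. Moxd1 changed by 2.33 in trachea, 1.86 in vagina, 1.61 in oral mucosa, 0.88 in esophagus and 0.52 in footpad. The remaining downward ones were -1.63 for Fst, -2.36 for Gnai1, -2.50 for Tbc1d9, -2.50 for Prtfdc1, -2.54 for Plscr2, -2.98 for Jam3 and -3.23 for Snurf. Hoxa5, a factor of trachea and lung development, gave -1.27 (adjusted p = 0.0097), with 1.59 in vagina and -0.76 in trachea, and no longer passed without the first trachea array of either stage. Several of these lay near the fold threshold. Without the second trachea array before, Ifi27 was at 0.98, Moxd1 at 0.86 and Nqo1 at 0.94, and without the second array after, Wfdc2 was at -0.92, Sox2 at 0.99 and Thy1 at -1.0, just under 2-fold. Without the first array before Thy1 was at -0.96, without the first array after Nqo1 was at 0.96, and with arrays centred on their medians Thy1 was at -0.99. Moxd1 was at 0.87 without the 4 footpad arrays.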

How the results depend on the processing

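The counts of 91 higher and 141 lower symbols, and of 174 and 220 for the difference of responses, kept within 1.5 times under the replicate block (91 and 141, 174 and 220), centring of each array on its median (81 and 155, with every trachea change shifted by -0.028), the filter on low means, trend and robust settings, array weights, other probe sets, adjustment over symbols alone and trachea arrays alone. Samples with the same number did not deviate together (r = -0.056), so the numbers were not taken as pairs, and with the block no named gene lost or gained its call. Without the 4 footpad arrays the difference of responses was past the threshold for 322 symbols upward and 306 downward. By limma's test against a fold of 2, 19 symbols were higher and 31 lower in trachea, with 31 and 26 for the difference. At adjusted p alone there were 1030 higher and 1707 lower, with 860 and 960. Leaving out each trachea array in turn gave 88 to 101 higher and 131 to 142 lower, and 168 to 179 and 208 to 230 for the difference. No named gene changed direction. Calls of trachea changes lost when an array was left out were those of Krt15, Sprr3, Ccne2, Tyms, Gstm5, Gpx2, Mgst2, Itga5 and Vim, and Mgst2 was also lost by centring. Without detection calls or depth, genes near the bottom of the scale could not be called absent.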

Other observations

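Some lists that the comparisons above leave aside gave few or no calls. Of 25 immediate early genes 0 passed the test in either direction, and the largest change was that of Ier3, a stress-induced survival gene, from 10.50 and 10.58 to 11.60 and 11.48 (1.00 on the log2 scale, limma adjusted p = 7.9e-06, just under 2-fold). It was at 1.04 without the second array before and 1.06 without the second array after. Of 18 genes of cholesterol synthesis and 27 of hypoxia and glycolysis, 0 passed. Egln3, a prolyl hydroxylase of the oxygen-sensing pathway, measured 8.82 and 8.75 before and 9.76 and 9.69 after (0.94, adjusted p = 4.7e-05).

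Of 31 Hox and positional factors 0 passed in trachea after against before, and 17 lay under the 40th percentile of all probe set means at both stages. Hoxa5, a factor of trachea and lung development, measured 5.57 and 5.47 before and 4.69 and 4.83 after, a change of -0.76 (adjusted p = 0.06). Of 32 chemokines and interleukins 0 passed. Il1rn, the interleukin 1 receptor antagonist, measured 8.40 and 8.33 before and 9.29 and 9.29 after (0.93, adjusted p = 0.00023).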
